A study of Mus musculus with 2 samples.

Results

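Transcripts of 8 genes around the RNA-binding protein LIN28B and the let-7 microRNAs were examined in RNA-seq libraries of RAW264.7, a tumour-derived mouse line of macrophage type. The genes were chosen by symbol from the 54532 genes of the authors' table, and the set was drawn up because Lin28b was known from these counts to be close to absent from 1 library. They are Lin28a, Lin28b, Hmga1, Hmga2, Igf2bp1, Igf2bp2, Igf2bp3 and Dis3l2. The series holds 1 library labelled RNF138 knockout and 1 labelled wild type, and both cultures had received 100 ng/ml of LPS, a bacterial lipopolysaccharide sensed by Toll-like receptor 4, for 3 hours. The sources used here do not say how the knockout was made or whether it is 1 clone. With 1 library per group no difference has a replicate check, no test was possible, and all intervals (95%) cover counting error only. PCR copies cannot be told from separate molecules here, so even these intervals may be too narrow.

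LIN28A and LIN28B bind the precursors of let-7 through a cold shock domain and a pair of zinc knuckles, and so block the maturation of this microRNA family. As described for LIN28A in mammals, the terminal uridylyltransferases TUT4 and TUT7 add a uridine tail to the bound precursor. The exonuclease DIS3L2 then degrades the tailed RNA. Mature let-7 in turn represses mRNAs that carry its seed match, among them those of the LIN28 proteins, of the chromatin architectural proteins HMGA1 and HMGA2, and of the IGF2BP family of mRNA-binding proteins. These genes are called oncofetal because they are active in embryonic tissue and in many tumours. In mouse blood formation, Lin28b and Hmga2 are known for their activity in fetal stem cells.

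All 9 mature let-7 family members matched in RefSeq (build GRCm38.p6) share 1 seed, bases 2 to 8, which is what defines the sites searched for here. A selection is printed to show what the members share, with the seed in capitals.
let-7a-5p: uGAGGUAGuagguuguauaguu
let-7d-5p: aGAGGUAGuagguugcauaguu
let-7g-5p: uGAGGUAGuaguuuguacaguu
miR-98-5p: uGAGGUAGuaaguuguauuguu

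The LIN28 zinc knuckles are known to prefer the letters GGAG in the loop of the precursor. Of 12 precursor hairpins of the family, 9 held GGAG between the arms and 3 (those of let-7b, let-7c-2 and miR-98) did not. GGAG occurs somewhere in 44.5% of all 1005 mouse hairpins in the RefSeq table, so the letters alone are common. The hairpins of let-7g and let-7b are shown as an example with the motif, in capitals, and an example without it.
Mirlet7g, chr9:106178840-106178927, plus strand: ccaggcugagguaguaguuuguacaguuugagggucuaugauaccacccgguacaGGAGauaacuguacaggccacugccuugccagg
Mirlet7b, chr15:85707319-85707403, plus strand: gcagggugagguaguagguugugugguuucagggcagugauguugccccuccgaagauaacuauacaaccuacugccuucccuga

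The seed match CTACCTC was looked for on the sense strand of the longest annotated 3′ UTR of each gene. It was found in 7 of the 8 genes, 17 times in all, and 9 of these sites were followed by an A, which makes the longer match CTACCTCA. Lin28b, Hmga2 and Igf2bp1 each had 4 sites. This number was reached by 10 of the 10702 measured coding genes with an annotated 3′ UTR (0.0934%), themselves included. Lin28a had 2 sites, which 1.38% of those genes had or exceeded, and Hmga1, Igf2bp2 and Igf2bp3 had 1 each, as 10.5% did or exceeded. Dis3l2, with a 3′ UTR of 350 bases, had none. The 3′ UTRs of Lin28b (4445 bases) and Igf2bp1 (6337 bases) are long, which gives more room for such letters. The 8 genes were picked as linked to LIN28B and let-7, so nothing is read from how rare such numbers of matches are. The site nearest the stop codon in 4 of the genes is printed with its surroundings, seed match in capitals, to show the sequence through which let-7 could pair with them. A match is a description of letters, not of binding.
Lin28b, chr10:45381021-45381050, minus strand: cccttcacccgggcgggaagtCTACCTCat
Hmga2, chr10:120364223-120364252, minus strand: gggggcgccgacattcaatttCTACCTCag
Igf2bp1, chr11:95961777-95961806, minus strand: ggcagtgctgtgcgaagtaaaCTACCTCaa
Igf2bp3, chr6:49086786-49086815, minus strand: taaacgtgcatttttactcaaCTACCTCag

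The library labelled knockout held 19032311 counts and the library labelled wild type 15573989. Counts were scaled with TMM factors, and CPM are counts per 1000000 of the scaled total. A gene with a mean count of at least 10 was called measured, and it passed the size rule when it also differed by at least 2-fold with an interval excluding a ratio of 1. Over the series, 12668 genes were measured and 1286 (10.2%) passed the rule, 828 (6.54%) higher and 458 (3.62%) lower in the library labelled knockout. The targeted gene, Rnf138, had 4764 counts in the library labelled knockout and 602 in the library labelled wild type, which goes against the label as far as transcripts over the whole gene can show, so the groups are named by their labels throughout and every direction rests on them. Macrophage genes such as Csf1r, Cd68, Spi1 and Cd14 were abundant in both libraries, and of 11 measured macrophage markers Lyz2 and Msr1 passed the size rule as higher in the library labelled knockout, Adgre1 and Cd36 as lower, and 7 did not pass; their part in the values of the 8 genes was not tested. None of 10 pluripotent and germ cell markers had a count in either, the 7 fibroblast markers summed to 10 counts in each, the 8 lymphocyte markers to 4 and 3, and of 5 hepatocyte markers only Afp was measured, with Ttr at 16 counts in the library labelled knockout and 0 in the library labelled wild type. In bulk RNA, fewer cells with a transcript and less transcript per cell cannot be told apart.

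Of the 8 genes, 7 were measured and 1, Lin28b, passed the size rule, against 10.2% of all measured genes in either direction and 3.62% in its own. Since Lin28b helped to choose the set, nothing is read from that count. The other 6 had ratios between 0.747 and 1.29, and 4 of them were above 1. Lin28a had 0 counts in both libraries.

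**Figure D1:**
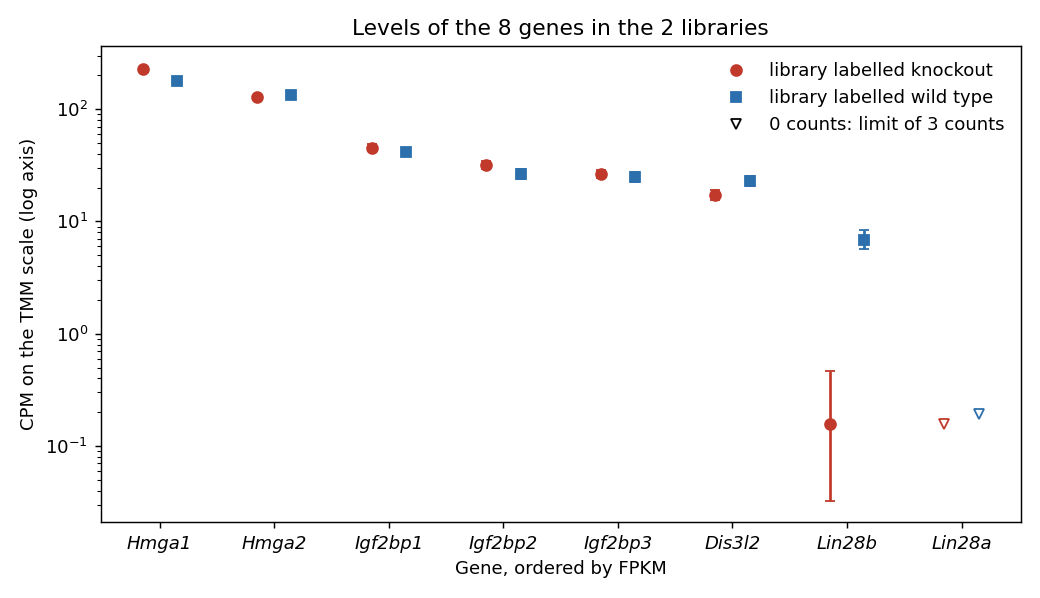
Level of each gene in CPM (log axis) in the library labelled knockout (circles) and the library labelled wild type (squares), with 95% Poisson intervals, often smaller than the symbol. Open triangles mark the limit of 3 counts where a gene had none. Lin28b stands at 0.158 CPM against 6.90 CPM, while Hmga1, Hmga2, the Igf2bp genes and Dis3l2 lie side by side.

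Lin28b (ENSMUSG00000063804, GRCm38 chr10:45376620-45486395, minus strand) had 3 counts in the library labelled knockout and 108 in the library labelled wild type. These are 0.158 CPM (0.0327 to 0.463) and 6.90 CPM (5.66 to 8.33). The set was drawn up with this difference known, so the values of Lin28b are a description. The ratio was 43.5 in favour of the library labelled wild type (14.5 to 214), or -5.23 on the log2 scale with 0.5 counts added to each library. Even where it was present Lin28b was a weakly expressed gene. Its level per length was 0.0181 FPKM in the library labelled knockout and 0.792 FPKM in the library labelled wild type, and 14.5% of measured genes were below it in the library labelled wild type. None of its exons overlaps another annotated gene, so the counts are not shared with a neighbour. For Lin28b the authors' deposited table gives a log2 fold change of -5.38.

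The paralogue Lin28a (ENSMUSG00000050966, GRCm38 chr4:134003330-134018841, minus strand), the form best known from embryonic stem cells, had no count in either library. Taking 3 counts as the limit that a count of 0 allows, a 1-sided limit below the upper end of the 2-sided Poisson interval, its level was up to 0.158 CPM in the library labelled knockout and up to 0.192 CPM in the library labelled wild type. Lin28b thus supplied all 3 and all 108 counts of the LIN28 pair.

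The genes on either side of Lin28b did not share its difference. Prep, a prolyl endopeptidase gene 209 kb away, had 3650 counts in the library labelled knockout and 3084 in the library labelled wild type, a ratio of 0.979 (0.933 to 1.03). Hace1, a ubiquitin ligase gene 91.4 kb away on the other side, had 445 and 362 counts in the same order and a ratio of 1.02 (0.883 to 1.17). With Prdm1 and the pseudogene Gpx4-ps2 they make up the 4 other measured genes within 1 Mb of Lin28b, none of which passed the size rule, and the 4 log2 ratios lay between -0.53 and 0.02. Around the 8 genes as a set, none of the 16 nearest measured neighbours passed it, against 10.2% of all measured genes, with ratios from 0.761 to 1.78.

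The coding genes with levels most like those of Lin28b, by distance over log2 CPM in the 2 libraries, were Rbbp9, Lama4, Pkib, Kif26a and Sparc. Rbbp9, which encodes a serine hydrolase, had 3 counts in the library labelled knockout and 87 in the library labelled wild type. Lama4, the laminin alpha 4 gene, had 4 and 90 in that order, and Pkib, the gene of a protein kinase A inhibitor, had 4 and 64. Kif26a, a kinesin gene, had 6 counts in the library labelled knockout and 123 in the library labelled wild type, and Sparc, a matrix protein gene, had 7 and 120. Lama4 and Pkib lie on chromosome 10, as Lin28b does. This likeness rests on 2 libraries and describes levels alone.

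**Figure D2:**
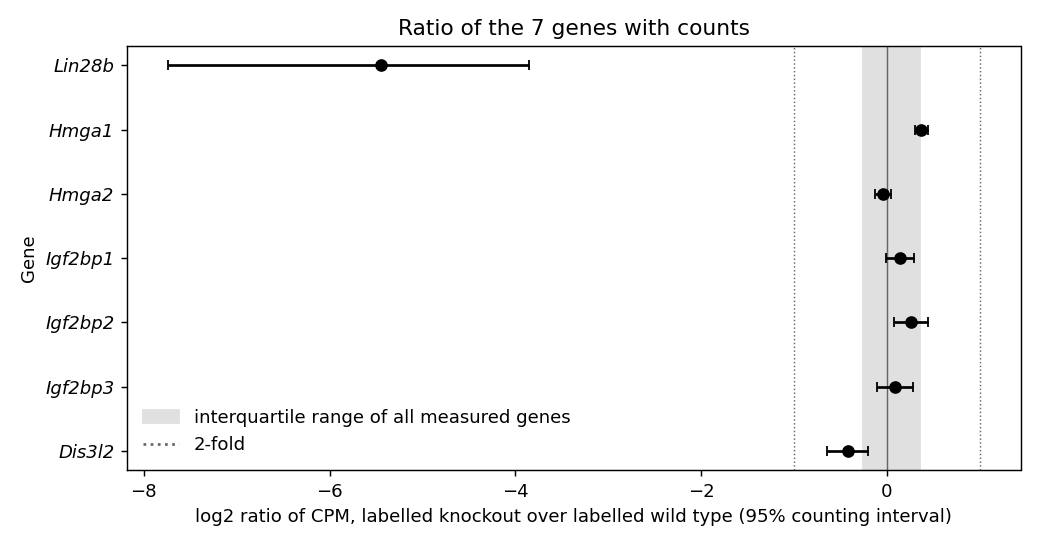
Log2 ratio of CPM, labelled knockout over labelled wild type, with its 95% counting interval for the 7 genes with counts. The grey band spans the interquartile range of all measured genes (-0.26 to 0.35) and dotted lines mark 2-fold. Lin28b lies far to the left, and the other 6 lie within 2-fold.

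Hmga2 is the let-7 target with the best-known set of seed matches, and its product bends AT-rich DNA. Hmga2 (ENSMUSG00000056758, GRCm38 chr10:120361275-120476469) had 2442 counts in the library labelled knockout and 2077 in the library labelled wild type. These are 129 CPM (124 to 134) and 133 CPM (127 to 138), and the intervals overlap. Its ratio was 0.973 (0.917 to 1.03), an interval that includes 1 and excludes a 2-fold difference as far as counting error goes. It lies on the same chromosome as Lin28b and has as many seed matches, and a difference between the libraries was not detectable at this depth. Its exons overlap those of 1700006J14Rik on the opposite strand over 2.07% of their length.

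Hmga1, which encodes a related DNA-binding protein, was the most abundant of the 8 per length, at 111 FPKM in the library labelled knockout and 86.3 FPKM in the library labelled wild type. It had 4304 and 2760 counts in that order, a ratio of 1.29 (1.23 to 1.35). This value is uncertain, because the near-identical gene Hmga1b on chromosome 11 shares sequence with it. Of the windows of 100 bases in Hmga1b transcripts, 78.8% also occur in Hmga1 transcripts, and 40.1% of those of Hmga1 occur in Hmga1b. Hmga1b had 5000 counts in the library labelled knockout and 4015 in the library labelled wild type, a ratio of 1.03 (0.988 to 1.07). Summed over both genes the ratio was 1.14 (1.10 to 1.17), with 9304 counts in the library labelled knockout and 6775 in the library labelled wild type. Of the 7 Hmga and Hmgn genes measured, Hmgn3, a nucleosome-binding protein gene, was the single one past the size rule, against 3.62% of all measured genes past it in that direction, with 5 counts in the library labelled knockout and 21 in the library labelled wild type, 5.08-fold lower under the knockout label (1.86 to 17.2). On the opposite strand Gm29054, without counts, covers 13.6% of the Hmgn3 exons, and Gm2065, with 6 counts in the library labelled knockout and 9 in the library labelled wild type, covers 1.61%.

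The 3 Igf2bp genes encode proteins that bind and stabilise mRNAs such as that of IGF2. Igf2bp1 had 860 counts in the library labelled knockout and 645 in the library labelled wild type, or 45.4 CPM (42.4 to 48.6) and 41.2 CPM (38.1 to 44.5). Its ratio was 1.10 (0.995 to 1.22). Igf2bp2 had 597 counts in the library labelled knockout and 414 in the library labelled wild type, a ratio of 1.19 (1.05 to 1.36) whose interval excludes 1 without reaching 2-fold. Igf2bp3 had 500 and 391 counts in that order and a ratio of 1.06 (0.925 to 1.21), but 18.7% of its exon length overlaps Malsu1 on the opposite strand, and without a stated counting strand the reads of the overlap cannot be assigned. All 3 were thus present in both libraries at levels within 2-fold. Summed, they had 1957 counts in the library labelled knockout and 1450 in the library labelled wild type, a ratio of 1.12 (1.04 to 1.20). Igf2, the gene for which the family is named, had 0 counts in both libraries.

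Dis3l2, the nuclease gene of the let-7 precursor decay pathway, had 326 counts in the library labelled knockout and 361 in the library labelled wild type, or 17.2 CPM (15.4 to 19.2) and 23.1 CPM (20.7 to 25.6). Dis3l2 was thus 1.34-fold lower under the knockout label (1.15 to 1.56), and the interval excludes 1 without reaching 2-fold. Its relatives lay in the same range, since Dis3, the catalytic nuclease of the nuclear exosome, had a ratio of 0.834 (0.791 to 0.881) and Dis3l, that of the cytoplasmic exosome, a ratio of 0.700 (0.609 to 0.803).

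Per length, the order of the 8 genes was the same in both libraries: Hmga1, Hmga2, Igf2bp1, Igf2bp2, Igf2bp3, Dis3l2, Lin28b and Lin28a. In the authors' FPKM with Poisson intervals, Igf2bp1 at 4.85 (4.53 to 5.19) and Igf2bp2 at 4.41 (4.06 to 4.77) overlapped in the library labelled knockout. In the library labelled wild type the intervals of Igf2bp1, at 4.43 (4.09 to 4.78), and Igf2bp2, at 3.72 (3.37 to 4.09), just met. There Igf2bp3, at 3.18 (2.88 to 3.52), overlapped both Igf2bp2 and Dis3l2, at 2.70 (2.42 to 2.99). Other neighbours in the order did not overlap in either library, Lin28a at 0 apart.

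The let-7 precursors themselves could not be measured. Of 12 let-7 family genes in the table, 9 had 0 counts in both libraries. Mirlet7c-1 had 2 counts in the library labelled knockout and 0 in the library labelled wild type, Mirlet7g had 0 and 2, and Mirlet7a-1 had 0 and 1. These are within the limit of 3 counts, and the fragments selected for these libraries were far longer than a mature microRNA, so no level of let-7 is given. Host transcripts were counted. Huwe1, which carries let-7f-2 and miR-98 in its introns, had a ratio of 1.22 (1.19 to 1.25), and Wdr82, the host of let-7g, one of 0.820 (0.772 to 0.871). Mir99ahg, a long non-coding host of let-7c-1, had 109 counts in the library labelled knockout and 137 in the library labelled wild type, 1.52-fold lower under the knockout label (1.17 to 1.97).

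None of the 20 measured genes for let-7 maturation and decay passed the size rule, against 6.54% of all measured genes higher and 3.62% lower, and 9 of the 20 had ratios above 1. Their median log2 ratio was -0.02, beside 0.02 over all measured genes. Drosha, the nuclear microRNA-processing nuclease gene, had a ratio of 0.984 (0.910 to 1.06), and Dicer1, which cuts the precursor, one of 0.798 (0.745 to 0.856). The uridylyltransferase genes Tut4 and Tut7 stood on opposite sides of 1. Tut4 had 591 counts in the library labelled knockout and 834 in the library labelled wild type, 1.71-fold lower under the knockout label (1.53 to 1.90), while Tut7 had 1711 and 984 in that order and was 1.44-fold higher (1.33 to 1.56). Papd4, a related nucleotidyltransferase gene of this list, had 1193 counts in the library labelled knockout and 1587 in the library labelled wild type. It was 1.61-fold lower under the knockout label (1.49 to 1.73). The most abundant per length were Hnrnpa1, an RNA-binding protein gene, at 358 FPKM in the library labelled knockout and 259 FPKM in the library labelled wild type, and the helicase gene Ddx5, at 298 FPKM and 304 FPKM in that order. Trim71, a ubiquitin ligase gene of stem cells and a let-7 target, had 0 counts in both libraries. Of 13 measured genes of the exosome and Dis3 list none passed, and their log2 ratios had a median of 0.02. There Exosc3, an exosome core subunit gene, had a ratio of 1.58 (1.45 to 1.73), and Xrn2 one of 1.02 (0.974 to 1.06).

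**Figure D3:**
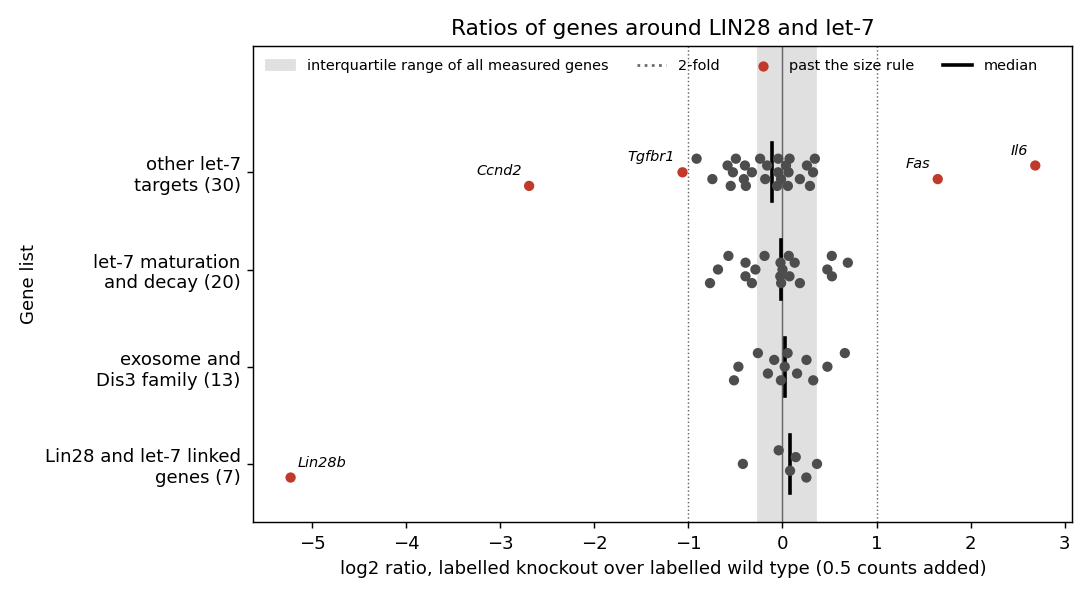
Log2 ratio of each measured gene, labelled knockout over labelled wild type with 0.5 counts added, in 4 gene lists, with the number measured in brackets. Black bars are medians, red points passed the size rule, the grey band spans the interquartile range of all measured genes and dotted lines mark 2-fold. Ccnd2 and Tgfbr1 lie to the left and Fas and Il6 to the right, and no gene of let-7 maturation or of the exosome lies beyond 2-fold.

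Other genes described as let-7 targets had ratios on both sides of 1, and nothing is read from the few that passed the rule. Of 30 measured, 2 passed the rule as higher under the knockout label, against 6.54% of all measured genes, 2 passed as lower, against 3.62%, and 26 did not pass, with a median log2 ratio of -0.11 and 11 ratios above 1. Il6, the interleukin-6 gene, had 416 counts in the library labelled knockout and 53 in the library labelled wild type, 6.49-fold higher (4.87 to 8.81), and the death receptor gene Fas had 601 and 158 in that order, 3.15-fold higher (2.64 to 3.77). Ccnd2, the cyclin D2 gene, had 11 counts in the library labelled knockout and 61 in the library labelled wild type, 6.70-fold lower (3.50 to 14.1), and Tgfbr1, a TGF-beta receptor gene, had 5052 and 8727 in that order, 2.09-fold lower (2.02 to 2.16). A seed match was found in the 3′ UTRs of Fas and Tgfbr1 and in neither Il6 nor Ccnd2. Of the 30, 19 held a seed match (63.3%, against 10.5% of measured coding genes). Their median log2 ratio was -0.04, beside -0.32 for the 11 without one. The list was chosen for let-7 targeting, so nothing is read from the share with a match.

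Among other oncofetal and imprinted growth genes, 7 of 13 had 0 counts in both libraries and 4 were measured. Igf2r, the receptor gene that clears IGF2, had 779 counts in the library labelled knockout and 1589 in the library labelled wild type, 2.47-fold lower (2.26 to 2.69), and was the single one past the rule, against 3.62% of all measured genes in that direction. Afp, the alpha-fetoprotein gene of fetal liver, had 139 and 131 counts in that order and a ratio of 0.878 (0.686 to 1.12).

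Genes with let-7 seed matches were also compared with genes without across the transcriptome. The median log2 ratio was 0.01 for 9573 measured coding genes with no match, 0.03 for 981 genes with 1 match, -0.02 for 126 genes with 2 and 0.06 for 22 genes with 3 or more. The measured genes of the set were not taken out, here or in the comparison by length below. Lin28b, chosen for its difference, is thus among the 22, as are Hmga2 and Igf2bp1. Genes with longer 3′ UTRs had more matches and lower ratios, so the comparison was also made within 3 bins of 3′ UTR length holding about equal numbers of genes, divided at 685 and 1828 bases. In the shortest bin the median was 0.16 for the 89 genes with a match, beside 0.09 for genes with none. In the middle bin the medians were 0.05 with a match and 0.00037 without, and in the longest bin -0.01 with a match and -0.06 without. The median was thus higher with a match in each bin, by less than 0.1 on the log2 scale. The spread of single genes was far wider. In the shortest bin the quartiles were -0.05 and 0.62 with a match and -0.17 and 0.39 without. The share past the rule as higher under the knockout label was 10.1% with a match (9 genes) and 6.90% without in the shortest bin. It was 8.16% and 4.51% in that order in the middle bin, and 5.50% and 4.76% in the longest. The share past the rule as lower was 1.12% with a match (1 gene) and 2.59% without in the shortest bin. It was 3.32% and 3.27% in that order in the middle bin, and 3.24% and 3.60% in the longest. These values describe the 2 libraries and were not tested.

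**Figure D4:**
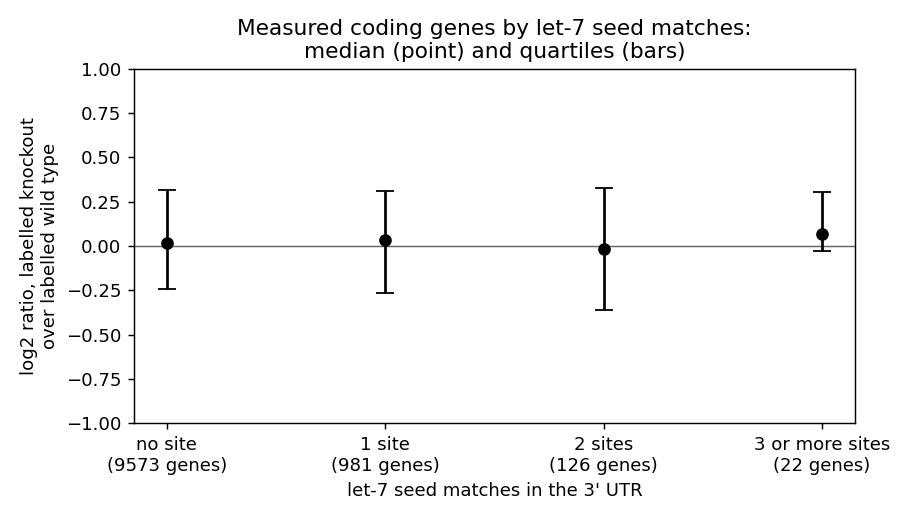
Median log2 ratio (points) with quartiles (bars), labelled knockout over labelled wild type, of measured coding genes by the number of let-7 seed matches in the 3′ UTR. The 4 medians lie between -0.02 and 0.06, and the quartiles show the spread of single genes in each class.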

How the data were processed

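The authors deposited 1 table with raw read counts per gene for both libraries, for which the submitters' processing notes list featureCounts 1.5.0-p3, HISAT2 2.0.5 and CASAVA 1.8 and the build GRCm38 (mm10). The sources used here do not give the annotation release, strand setting or filters. FPKM values, a signal of scaled counts, log2 fold changes and p-values are also the authors' own deposited columns. The signal and p-values were not used. Gene lengths are as deposited.

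Counts were scaled by TMM (edgeR 4.0.16, R 4.3.3). Intervals of levels are exact Poisson intervals and those of ratios Clopper-Pearson intervals conditional on the summed counts, both at 95%. No count test was run. The size rule was tested on simulated data that held counting error alone. This checks the calculation and cannot show variation between cultures. Sequences came from RefSeq (GRCm38.p6) and GENCODE M21 transcripts on the same build. Named genes were drawn from the 8 genes, Rnf138, let-7 genes with a count, the 5 genes nearest to Lin28b and the nearest measured neighbours. Up to 4 genes per list past the rule were added (otherwise the 2 most abundant per length). Of the neighbours, those of Lin28b alone were named, with Prdm1 and Gpx4-ps2 near it, and some marker genes were left out. Drosha, Dicer1, Tut4, Tut7, Papd4, Dis3, Dis3l, Hmga1b, Mir99ahg, Csf1r, Cd68, Spi1, Cd14 and the genes at 0 were named after their values were seen. The genes and lists were chosen with earlier results of these data known. Alternatives were DESeq2 1.42.0 size factors, other scalings, filters and limits.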

Additional observations from a re-analysis of the deposited data

How the results depend on the processing

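Of 127 values over 12 alternatives, 114 changed little and 13 moved. Changed little means that ratios stayed within their counting interval and counts of genes within 1.5 times. Medians stayed within an interval over the listed genes or, where none could be had, within 0.1 on the log2 scale. A reversal of sign was looked for in Lin28b alone and was not seen. With 5 counts added to each library, the log2 ratio of Lin28b was -4.09, against -5.23 in the main setting. This lies inside its wide counting interval and so is among the values that changed little. Some values could not move. Library scaling factors shift all genes alike, so they leave the difference between genes with and without seed matches unchanged. Seed matches were counted in measured coding genes only. Neither dropping the minimum count nor keeping coding genes alone could therefore change that difference. Keeping coding genes alone also could not change the medians of the let-7 maturation genes or of the other let-7 targets, since all are coding. A list with no gene past the rule cannot gain one at a stricter limit. On log2 of the FPKM plus 1, a scale that shrinks weakly expressed genes, the log2 ratio of Lin28b was -0.82, 0 of the 8 genes passed the rule and 441 genes passed in all. With a mean count of at least 100, Lin28b was not measured, so 0 of the 8 passed, and 488 genes passed in all. The 1286 genes became 2655 at a 1.5-fold limit, 346 at 4-fold and 538 with the whole interval beyond 2-fold. At 1.5-fold, 3 of the 20 measured genes of let-7 maturation and decay passed, and 1 of the 3 measured let-7 genes and hosts. Over the series, 2655 of 12668 measured genes passed at that limit. At 4-fold, 2 of the 30 other measured let-7 targets passed, beside 346 of the 12668 measured genes. Nothing is read from these counts. The median log2 ratio of let-7 genes and hosts, -0.29 over 3 genes, was -0.44 with no minimum count and -0.0015 for coding genes alone. The comparison of genes with and without seed matches was chosen after the data were seen. No paired analysis was possible because each group has 1 library, and for the same reason no library could be left out. A gene at 0 counts is limited only to 3 counts, and Lin28b at 3 counts has a wide interval.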
